A study of Mus musculus with 10 samples.

Results

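The interferon response and RNA sensor genes described here are 9 mouse genes, Oasl2, Ifih1, Ddx58, Bst2, Isg15, Ifit1, Ifit3, Irf7 and Oas1a, taken by symbol from a table of 25239 genes. All 9 were in the table and all 9 passed the filter on low counts, which kept 18419 genes. They were measured by RNA-seq of testis from C57BL/6 mice in 4 groups. These were cKO testes with the genotype label Lsm7-flfl-stra8 at postnatal day 4 (P4, 3 libraries), WT testes at P4 (2 libraries), cKO testes at postnatal day 7 (P7, 3 libraries) and WT testes at P7 (2 libraries). The label names floxed Lsm7, which encodes a subunit of the LSm rings of U6 small nuclear RNA and of messenger RNA decay, and Stra8, a gene that germ cells switch on as they differentiate. It names no other allele, and the labels do not say whether WT mice carried a floxed allele or a Cre, or whether each library came from a single animal.

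Cells recognise viral RNA, and their own double-stranded RNA when it escapes processing, through helicase sensors in the cytoplasm. The sensors signal through the adaptor Mavs and the interferon regulatory factors to switch on interferon genes. Secreted interferon then acts through its receptor and a complex that holds Stat2 and Irf9, which binds the interferon-stimulated response element in the promoters of antiviral genes. Testis is an organ in which macrophages, Sertoli cells and Leydig cells are known to mount antiviral responses more readily than germ cells. Among the 9 genes, Ifih1 (MDA5) and Ddx58 (RIG-I) are sensors, Irf7 is a regulatory factor, and Oasl2, Bst2, Isg15, Ifit1, Ifit3 and Oas1a are antiviral effectors.

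The libraries held 28799371 to 41797353 reads assigned to genes. Counts of the P7 WT libraries agreed nearly within sampling noise, with a chi-square of 1.98 for each degree of freedom, where other pairs from one group gave 23.5 to 122.9. They were summed and counted as 1 sample, so no spread between P7 WT samples could be measured. The labels give germ cell as the cell type, but RNA was extracted from whole testis with no sorting step described. All 10 germ cell markers were read in every group, and so were all 8 Sertoli cell, 7 Leydig cell, 9 peritubular and stromal, 12 macrophage and 9 endothelial markers. Every sample thus held RNA of somatic cells. In such bulk RNA, fewer cells of a type and less RNA per cell cannot be told apart. Lsm7 itself was read at 44.9, 50.5 and 43.6 CPM (reads scaled to library size with TMM factors) in P4 cKO against 36.2 and 25.7 CPM in P4 WT, and at 45.2, 26.0 and 20.3 CPM in P7 cKO against 33.3 CPM in P7 WT. Neither difference passed (log2 0.58, adjusted p = 0.215 at P4, and -0.13, adjusted p = 0.835 at P7), so cKO below means the libraries labelled so.

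The promoters of the members were read from RefSeq (GRCm38.p6), from 250 bases before to 50 bases after each gene's start, and all 9 had an entry. The core of the interferon-stimulated response element, GAAANNGAAA or TTTCNNTTTC on the other strand, was found in 7 of the 9 windows. It is in 1131 of 32851 RefSeq promoters of this length, or 3.44%. The stretches that hold it are shown first, since they are the sequence feature that most of these genes share, with the matches in capitals and each written on its gene's strand. Matches that overlap run together, as 2 do in Bst2 and Oas1a and 3 in Isg15.
Ifih1 (chr2:62646206-62646235, minus strand): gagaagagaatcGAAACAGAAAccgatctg
Ddx58 (chr4:40239804-40239833, minus strand): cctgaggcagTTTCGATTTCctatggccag
Isg15 (chr4:156200871-156200900, minus strand): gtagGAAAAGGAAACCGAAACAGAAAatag
Ifit1 (chr19:34640784-34640813, plus strand): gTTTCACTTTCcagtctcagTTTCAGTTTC
Ifit3 distal (chr19:34583363-34583392, plus strand): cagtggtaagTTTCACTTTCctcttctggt
Ifit3 proximal (chr19:34583397-34583426, plus strand): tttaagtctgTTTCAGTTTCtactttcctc
Oas1a (chr5:120907523-120907552, minus strand): ttctcggGAAATGGAAACTGAAAatctact
Counted from 1 at the start of the promoter entry, the matches of Ifih1 and Ddx58 begin at bases 33 and 3, and those of the other genes lie before it. RefSeq gene bounds reach further upstream than the counted exons for Ifit3 (34583119 against 34583529), Oas1a (120907544 against 120907525), Irf7 (141266499 against 141266424) and Oasl2 (114896926 against 114896934). By these bounds the Ifit3 matches and nearly all bases of the Oas1a matches lie inside the gene. Bst2 and Oasl2 are shown over all 250 bases before the start, because they are the members with the largest rise and the largest fall in cKO at P4.
Bst2 (chr8:71537473-71537722, minus strand): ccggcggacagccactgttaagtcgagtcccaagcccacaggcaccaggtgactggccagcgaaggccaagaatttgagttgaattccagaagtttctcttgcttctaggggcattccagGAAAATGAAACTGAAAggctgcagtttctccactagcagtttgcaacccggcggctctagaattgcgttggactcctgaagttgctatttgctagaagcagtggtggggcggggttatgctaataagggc
Oasl2 (chr5:114896684-114896933, plus strand): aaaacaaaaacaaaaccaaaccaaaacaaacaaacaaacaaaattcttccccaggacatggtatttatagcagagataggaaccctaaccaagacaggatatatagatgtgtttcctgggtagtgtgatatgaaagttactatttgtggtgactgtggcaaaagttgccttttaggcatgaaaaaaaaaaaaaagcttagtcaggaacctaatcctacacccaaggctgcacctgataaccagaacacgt
The Bst2 stretch holds its 2 overlapping matches from -130 to -115. No match was found in the windows of Oasl2 and Irf7. The match is a description of letters, and no binding was measured.

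**Figure D1:**
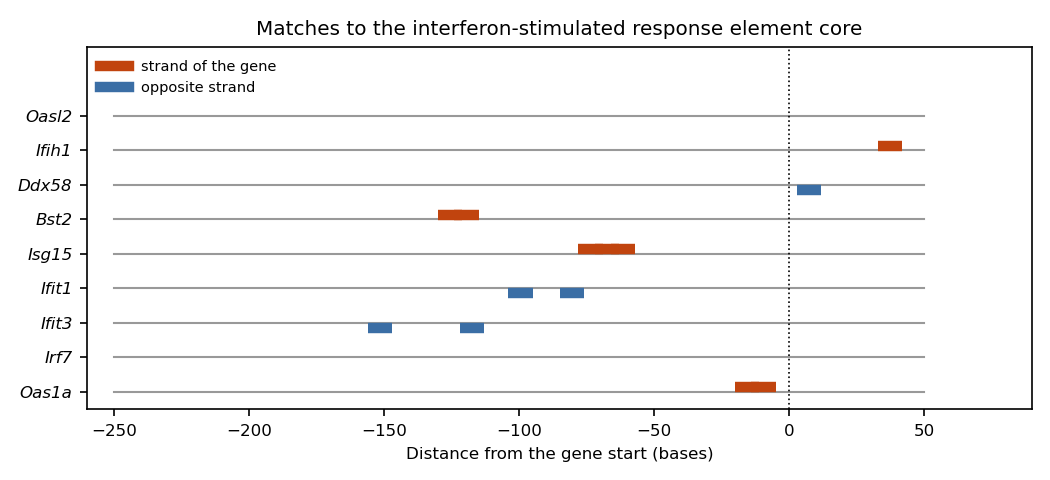
Positions of GAAANNGAAA on the gene's strand (red) and on the opposite strand (blue) in bases from the start of each of the 9 genes, over the 250 bases before and 50 bases after it. 7 genes hold a match, and Oasl2 and Irf7 hold none in this window.

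Levels between genes were compared per length, in TPM (reads divided by the exon lengths in the table and scaled to one total per library). Bst2, a membrane protein that tethers budding virus particles (tetherin), had the highest level in every group, at 143 ± 9.41 TPM in P4 cKO (SD, n = 3), 96.5 ± 0.573 TPM in P4 WT (n = 2), 93.9 ± 9.53 TPM in P7 cKO (n = 3) and 51.0 TPM in the P7 WT sample. Ifit1 had the lowest level in every group, at 0.198 to 0.573 TPM by group mean. Between them, Oasl2 averaged 5.32 to 18.0 TPM, Ddx58 5.18 to 14.2 TPM, Irf7 3.75 to 7.33 TPM and Ifih1 1.74 to 6.66 TPM. Isg15, Ifit3 and Oas1a stayed at 0.723 to 2.82 TPM by group mean. Oas1a (chr5:120896257-120907525) lies on the same chromosome as Oasl2 (chr5:114896934-114912245), Isg15 (chr4:156199424-156200818) on that of Ddx58 (chr4:40203777-40239825), and Ifit3 (chr19:34583529-34588982) on that of Ifit1 (chr19:34640889-34650009), in the GRCm38 coordinates of the table. Ifih1 lies at chr2:62595793-62646255, Bst2 at chr8:71534256-71537472 and Irf7 at chr7:141263183-141266424. Counts are over the exons of each gene. Genes whose outer bounds overlap Ddx58 had at most 4 reads in a library and those whose bounds overlap Ifit1 and Ifit3 had 0, and no other member overlapped one. A gene annotated at several places was given 1 span from its first to its last base, so these overlaps need not be real. The order of the middle genes was not the same in all groups. Oasl2 stood second in P4 WT, P7 cKO and P7 WT, while in P4 cKO its samples overlapped those of Ddx58. Samples of neighbours also overlapped in P4 cKO from Ifih1 through Isg15 and Ifit3 to Oas1a, in P4 WT for Ifit3 and Isg15, and in P7 cKO for Ddx58 and Irf7, for Ifih1 and Isg15, and for Ifit3 and Oas1a.

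**Figure D2:**
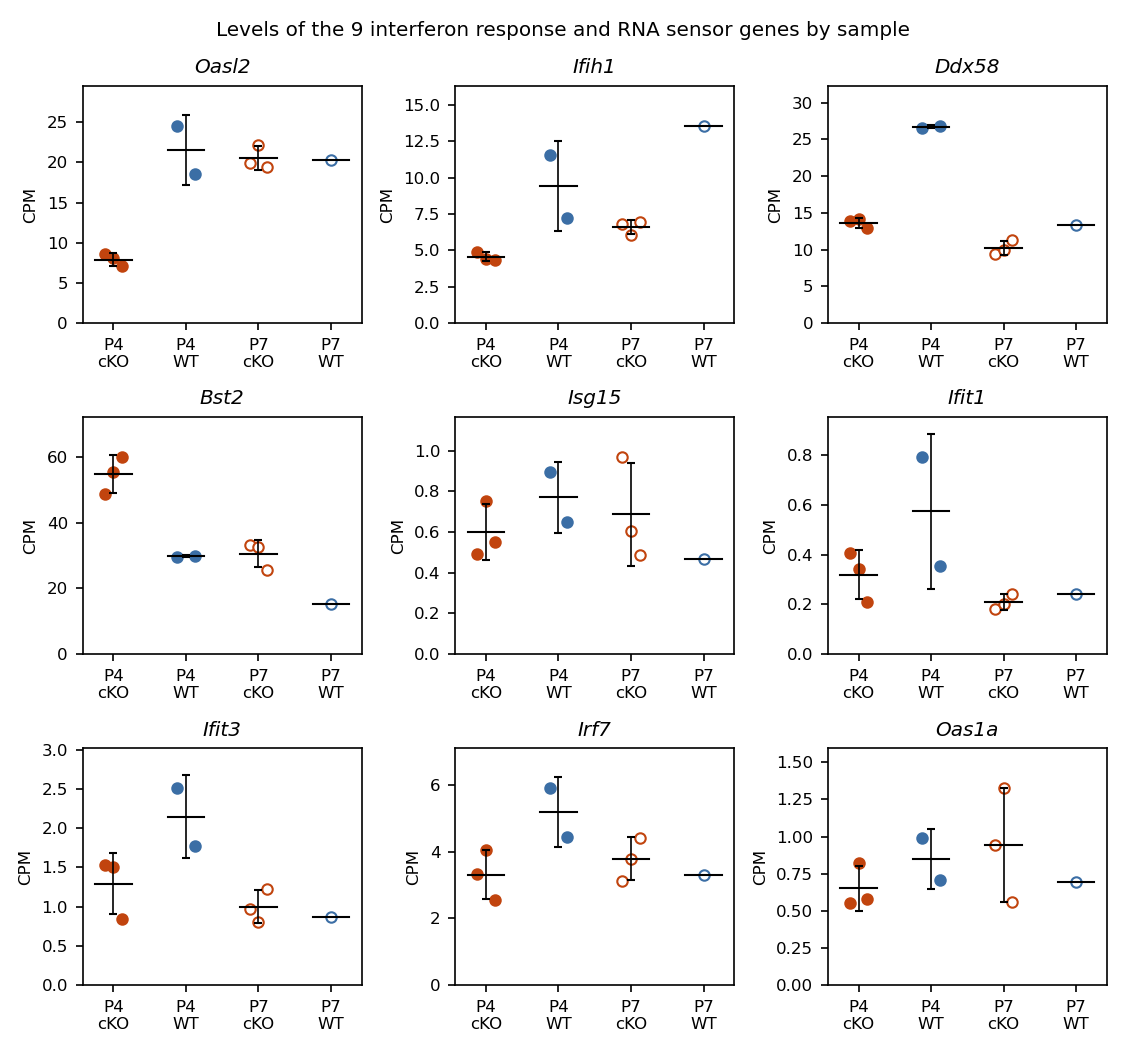
Level of each of the 9 genes in CPM (vertical axes, each from 0) in every sample of P4 cKO, P4 WT, P7 cKO and P7 WT. Bars mark the group mean, error bars the SD over samples, and the P7 WT point is the sum of 2 libraries. At P4 the cKO samples lie below the WT samples for Oasl2, Ifih1, Ddx58, Ifit3 and Irf7 and above them for Bst2.

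The first question was whether these genes differed between cKO and WT testes at P4. Both RNA sensors and Oasl2 were lower in cKO, each at 36.7% to 51.1% of the WT mean in CPM, while Bst2 was higher by 1.84 times. Of the 9 genes, 4 passed an adjusted p under 0.05 in edgeR's quasi-likelihood test, against 8.96% of all genes tested. Of these 3 fell and 1 rose, against 4.13% of all genes that fell and 4.84% that rose. The median log2 fold change of the 9 genes was -0.73, and that of all genes was 0.00. Because the members were chosen with earlier results of these data known, these shares and medians are descriptions and no test. With library totals as the scale, the median of all genes was -0.16 and 528 genes were called higher and 1544 lower, against 891 and 760 with the TMM scale, and Oasl2 (-1.60), Ifih1 (-1.20), Ddx58 (-1.13) and Bst2 (0.72) still passed.

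Ifih1, the sensor of long double-stranded RNA, was read at 4.92, 4.42 and 4.35 CPM in P4 cKO against 11.6 and 7.22 CPM in P4 WT. Every cKO sample lay below both WT samples, and the WT samples lay further apart than the cKO samples. The log2 fold change was -1.04 (SE 0.25, adjusted p = 0.0297). Ddx58, the sensor of short double-stranded RNA with phosphorylated ends, was read at 13.9, 14.2 and 12.9 CPM in P4 cKO against 26.6 and 26.9 CPM in P4 WT. The samples of each genotype lay close together and the groups were apart. Its log2 fold change was -0.97 (SE 0.18, adjusted p = 0.0178). These values rest on 129 to 349 reads for Ifih1 and 414 to 913 reads for Ddx58 in the P4 libraries.

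Oasl2, a relative of the 2′-5′ oligoadenylate synthetases, had the largest difference of the 9 genes. It was read at 8.56, 8.08 and 7.09 CPM in P4 cKO against 24.6 and 18.5 CPM in P4 WT, so the groups did not overlap. Its log2 fold change was -1.44 (SE 0.20, adjusted p = 0.0114). Bst2 ran the other way, at 48.8, 55.5 and 60.1 CPM in P4 cKO against 29.5 and 29.9 CPM in P4 WT. All cKO samples were above both WT samples, and the log2 fold change was 0.88 (SE 0.18, adjusted p = 0.0217).

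The other members did not pass. Irf7, the factor that amplifies interferon transcription, was read at 3.33, 4.04 and 2.56 CPM in P4 cKO against 5.92 and 4.45 CPM in P4 WT (log2 -0.65, SE 0.29, adjusted p = 0.166). Ifit3, of the same gene family as Ifit1, was read at 1.53, 1.51 and 0.843 CPM against 2.52 and 1.77 CPM in WT (log2 -0.73, SE 0.39, adjusted p = 0.237). The groups of both genes lay apart, without passing. In all, 5 of the 9 genes had every cKO sample below every WT sample and 1 had them above, against 25.6% and 24.1% of all genes. Isg15, a ubiquitin-like modifier, had 17, 22 and 21 reads in the P4 cKO libraries and 27 and 22 in P4 WT (log2 -0.36, SE 0.50). Oas1a, which makes the 2′-5′ oligoadenylates that activate RNase L, had 19, 24 and 22 reads in P4 cKO against 30 and 24 in P4 WT (-0.39, SE 0.49). Ifit1, which binds RNA lacking a host cap, had 14, 10 and 8 reads in P4 cKO against 24 and 12 in P4 WT (-0.84, SE 0.63). None of the 3 passed, with standard errors of 0.49 to 0.63 on the log2 scale. Near-identical copies of Ifit3 and Oas1a exist in the mouse, and how reads with several matches were counted is not given in the sources used here, so their values are uncertain.

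The P4 calls did not hold when certain single libraries were left out. None of the 4 passed without the second or the third P4 cKO library, or without P4 WT library 1. The log2 fold changes without them were -1.47, -1.38 and -1.23 for Oasl2 (adjusted p = 0.055, 0.0549 and 0.186), -1.03, -1.02 and -0.66 for Ifih1 (0.0966, 0.108 and 0.335), -1.01, -0.94 and -0.98 for Ddx58 (0.0674, 0.0736 and 0.186) and 0.87, 0.80 and 0.87 for Bst2 (0.0767, 0.0904 and 0.221). Ifih1 also did not pass without P4 cKO library 1 (-1.11, adjusted p = 0.0599), nor Ddx58 and Bst2 without P4 WT library 2 (-0.96 and 0.89, 0.0501 and 0.0611). Over all genes, the same 3 fits called 13, 11 and 2, where 1651 were called with all libraries, 570 without P4 cKO library 1, 816 without P4 WT library 2 and 4157 without P7 cKO library 1. In every one of these fits the 4 genes kept their sign.

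The genotype difference also varied with gene length. The median log2 fold change at P4 was 0.41 over the 774 genes with exon lengths under 1 kb and -0.05 over the 4799 with 4 kb or more, counting genes whose average log2 CPM was at least 1. Bst2 has 807 bases of exon, Ifih1 5519 and Ddx58 4943. In a fit with offsets for length and GC content, Oasl2 (-1.38, adjusted p = 0.0258) and Ddx58 (-0.82, 0.0399) passed, while Ifih1 (-0.82, 0.0737) and Bst2 (0.53, 0.0741) did not.

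Markers of other cell types moved with genotype at P4. Macrophage markers summed to 97.1 to 159 CPM in P4 cKO and 95.8 to 98.3 CPM in P4 WT, with 3 of 12 higher and none lower. Endothelial markers summed to 353 to 383 CPM in cKO and 295 to 299 CPM in WT (1 of 9 higher), and Sertoli cell markers to 5040 to 5700 CPM in cKO and 2900 to 3930 CPM in WT (4 of 8 higher). Leydig cell markers (3 of 7 higher) summed to 1190 to 1380 CPM in cKO and 1130 to 1370 CPM in WT, and peritubular and stromal markers (3 of 9 higher) to 5260 to 7070 CPM in cKO and 4250 to 5100 CPM in WT. Germ cell markers summed to 281 to 299 CPM in cKO and 312 to 404 CPM in WT (2 of 10 lower). Lymphoid and dendritic markers stayed at 6.77 to 10.4 CPM in cKO and 8.81 to 9.76 CPM in WT, with none of 10 called. No marker of these lists was at 0, and only the globins Hba-a1, Hbb-bs and Hbb-bt of the erythroid list were. The part of these cells in the members' differences was not tested.

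**Figure D3:**
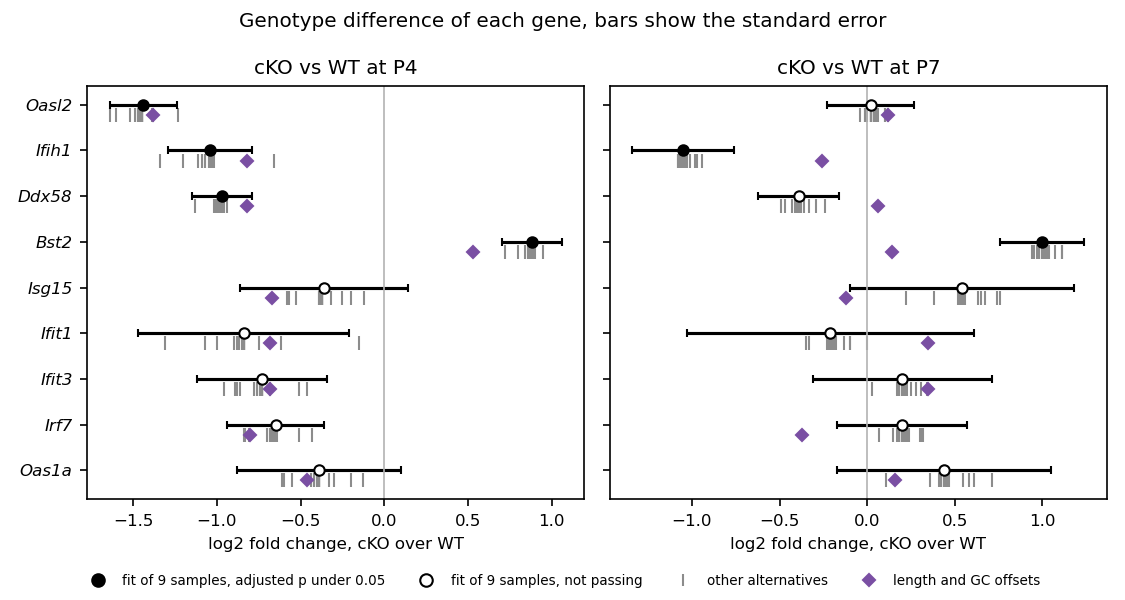
Log2 fold change of cKO over WT for each of the 9 genes at P4 (left) and P7 (right). Circles with error bars are the fit of 9 samples with its SE, filled where the adjusted p is under 0.05. Grey ticks are the other alternatives and purple diamonds the fit with length and GC offsets. At P7 the diamonds of Ifih1 (-0.26) and Bst2 (0.14) lie far from their circles (-1.05 and 1.00), and Oasl2 lies near 0 in both.

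At P7 the same comparison set 3 cKO samples against 1 WT sample. Ifih1 was again lower in cKO and Bst2 again higher, while Oasl2 stood at nearly the same level in both genotypes. Of the 9 genes 2 passed, against 17% of all genes. Ifih1 fell and Bst2 rose, against 9.72% of all genes that fell and 7.26% that rose. The median log2 fold change was 0.20 for the 9 genes and 0.08 for all genes. With library totals, the calls over all genes were 1744 higher and 1402 lower, against 1338 higher and 1791 lower with the TMM scale, and the median of all genes was 0.19.

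Ifih1 was read at 6.81, 6.03 and 6.95 CPM in P7 cKO against 13.6 CPM in P7 WT, where the 2 libraries apart gave 12.9 and 13.9 CPM. The cKO samples lay together at 48.4% of the WT level. Its log2 fold change was -1.05 (SE 0.29, adjusted p = 0.0341). Bst2 was read at 33.1, 32.6 and 25.7 CPM in P7 cKO against 15.2 CPM in P7 WT, 2.00 times higher by the means (log2 1.00, SE 0.24, adjusted p = 0.0199). Every cKO sample was above the WT sample. Oasl2 was read at 19.9, 22.2 and 19.4 CPM in P7 cKO against 20.3 CPM in P7 WT, so the WT sample lay within the cKO range (log2 0.02, SE 0.25, adjusted p = 0.971). Ddx58 was read at 9.36, 10.0 and 11.3 CPM in P7 cKO against 13.4 CPM in P7 WT (log2 -0.39, SE 0.23, adjusted p = 0.255).

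The remaining members did not pass at P7. Irf7 was read at 3.13, 3.79 and 4.42 CPM in P7 cKO against 3.30 CPM in WT, and Ifit3 at 0.972, 0.804 and 1.22 CPM against 0.867 CPM in WT. Their log2 fold changes were both 0.20 (adjusted p = 0.741 and 0.811). Isg15 had 32, 24 and 20 reads in the P7 cKO libraries and 15 and 12 in the P7 WT libraries (log2 0.54, SE 0.64). Oas1a had 31, 53 and 23 reads in P7 cKO and 18 and 22 in P7 WT (0.44, SE 0.61), and Ifit1 had 6, 8 and 10 in P7 cKO and 6 and 8 in P7 WT (-0.21, SE 0.82). No overlap with the WT sample was seen for 2 genes below it (Ifih1, Ddx58) and 2 above it (Bst2, Isg15), against 34.6% and 36.2% of all genes.

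The P7 calls depended on the setting. With length and GC offsets neither passed, at -0.26 for Ifih1 (adjusted p = 0.76) and 0.14 for Bst2 (0.808), and 2 genes in all were called, against 3129 without the offsets. Over all genes, 2012 were called without P4 cKO library 2, 4921 without P7 cKO library 1 and 961 without P7 cKO library 2. The median log2 fold change by exon length ran from 0.62 under 1 kb to -0.31 at 4 kb or more without the offsets, and from 0.08 to 0.02 with them. Fitted without any P4 library they did not pass (-1.08, adjusted p = 0.092, and 0.97, 0.113), and no gene was called. Neither passed without P7 cKO library 2 (-0.98, 0.0941, and 0.95, 0.0594). Ifih1 further did not pass with library totals (-0.94, 0.053) or without P7 cKO library 3 (-1.08, 0.0548), nor without the first P4 cKO library (-1.04, 0.0509) or the second (-1.04, 0.0608). Macrophage markers summed to 59.7 to 73.4 CPM in P7 cKO and 84.9 CPM in P7 WT, and endothelial markers to 123 to 177 CPM and 160 CPM in WT. Germ cell markers summed to 1340 to 1500 CPM in P7 cKO and 1700 CPM in P7 WT, and Sertoli cell markers to 4210 to 4960 CPM and 4660 CPM in WT. Erythroid markers summed to 2.19 to 3.16 CPM in P7 cKO and 16.4 CPM in P7 WT, with 1 of 2 tested lower. At P7, 1 of 12 macrophage markers was lower and 1 of 9 endothelial markers higher, and of 10 germ cell markers 2 were higher and 1 lower. Of 8 Sertoli cell markers 1 was higher and 1 lower, 1 of 9 peritubular and stromal markers was higher, and none of the Leydig or the lymphoid and dendritic markers was called. The part of these cells in the P7 differences was not tested.

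Between the stages, Oasl2 and Bst2 moved in opposite directions in cKO. Oasl2 was read at 19.9, 22.2 and 19.4 CPM in P7 cKO against 8.56, 8.08 and 7.09 CPM in P4 cKO, and its log2 fold change was 1.37 (SE 0.19, adjusted p = 3.44e-04). In WT, Oasl2 was read at 20.3 CPM at P7 against 24.6 and 18.5 CPM at P4 (log2 -0.09, SE 0.27, adjusted p = 0.837). The P4 cKO samples were the low ones, with those of the other 3 groups between 18.5 and 24.6 CPM. Bst2 fell with age in both genotypes, by 0.85 on the log2 scale in cKO (SE 0.16, adjusted p = 0.00267) and by 0.96 in WT (SE 0.25, adjusted p = 0.0206). Both cKO calls passed in all 19 alternatives. The WT call of Bst2 did not pass with offsets (-0.43, 0.203) or without P4 WT library 1 (-0.98, 0.0725).

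Ddx58 fell with age in WT, to 13.4 CPM at P7 against 26.6 and 26.9 CPM at P4 (log2 -0.99, SE 0.26, adjusted p = 0.021), and not past the threshold without P4 WT library 1 (-1.01, 0.0742). In cKO its P7 samples lay below its P4 samples (log2 -0.42, SE 0.17, adjusted p = 0.0833). Ifih1 had log2 fold changes of 0.53 in cKO (SE 0.22, adjusted p = 0.097) and 0.54 in WT (SE 0.32, adjusted p = 0.246), neither of which passed. So 2 of 9 genes passed with age in cKO, against 29.2% of all genes, and 2 of 9 in WT, against 21.8%. In cKO 1 rose and 1 fell, against 14.5% and 14.7% of all genes, and in WT none rose and 2 fell, against 11.8% and 9.97%. With library totals 3907 genes rose and 1818 fell in cKO, against 2663 and 2709 with the TMM scale, the median of all genes was 0.18, and Ifih1 rose as well (0.71, adjusted p = 0.0353). The P7 cKO samples did not overlap the P4 cKO samples for 2 genes above them (Oasl2, Ifih1) and 2 below (Ddx58, Bst2), against 22.9% and 23.2% of all genes. In WT the P7 sample lay above both P4 samples for 1 gene (Ifih1) and below both for 7, against 42.6% and 42.8%. Germ cell markers moved with age, with 8 of 10 higher in cKO (median log2 2.37) and 8 higher and 1 lower in WT (median 1.86). In cKO 6 of 9 peritubular and stromal, 4 of 7 Leydig cell, 6 of 12 macrophage and 8 of 9 endothelial markers fell. In WT 2, 1, 1 and 6 of them fell, and 1 Leydig cell marker rose. Of 8 Sertoli cell markers 1 rose and 3 fell in cKO, and 2 rose and 1 fell in WT. The part of these cells in the members' changes with age, the rise of Oasl2 in cKO among them, was not tested.

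The difference between the genotype differences at P7 and at P4 was tested as an interaction. No gene of 18419 passed by edgeR (0%), with 4619 (25.1%) at an unadjusted p under 0.05 and 1720 called by DESeq2. Without P4 WT library 2 edgeR called 716 genes, and without P7 cKO library 1 it called 1455. Oasl2 had the largest value of the 9 genes, 1.46 on the log2 scale (SE 0.34, adjusted p = 0.0696). It passed in 6 of 18 alternatives, among them DESeq2, no filter, the fit without P4 WT library 2 and the fit without P7 cKO library 1, over a range of 1.25 to 1.73 and adjusted p-values of 0.00283 to 0.287. The values of Bst2 (0.12, SE 0.29, adjusted p = 0.825) and Ifih1 (-0.01, SE 0.41, adjusted p = 0.998) were near 0, and that of Ddx58 was 0.58 (SE 0.30, adjusted p = 0.253). The median over the 9 genes was 0.83, against 0.07 over all genes (0.33 with library totals). Since the interaction includes the P4 difference and the members were chosen with earlier results known, these medians are a description only.

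The members were set beside the other genes of the pathway, from a list of 120 genes by role that includes the 9. Of these, 106 were tested. The list was also chosen with earlier results of these data known, so its shares, here and by role below, are descriptions only. At P4, 11 of the 106 fell and 2 rose, or 10.4% and 1.89%, against 4.13% and 4.84% of all genes, and the list median was -0.13. Without the 9 members, 8 of 97 fell and 1 rose, or 8.25% and 1.03%. These calls were lost without the same libraries as those of the members. None of the 97 was called without P4 cKO library 2, without P4 cKO library 3 or without P4 WT library 1. The count was 4 without P4 cKO library 1, 4 without P4 WT library 2, 5 without P7 cKO library 3, 21 without P7 cKO library 1, and 5 with length and GC offsets.

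Interferon genes themselves were close to unread. None of the 11 ligand genes passed the filter, 5 of them (Ifna1, Ifna4, Ifna5, Ifne and Ifnl3) had no read, and Ifnb1 had 2 reads over all libraries. The highest count was 8 reads of Ifnab in 1 library. Among 16 receptor and signalling genes, 3 fell at P4 (18.8%, against 4.13% of all genes) and none rose. They were Stat2 and Irf9, subunits of the interferon-activated complex, and Usp18, an interferon-induced protease that removes Isg15 and damps the receptor. Stat2 averaged 60.1 ± 10.2 CPM in P4 cKO and 104 ± 19.8 CPM in P4 WT (SD, n = 3 and 2, log2 -0.80, adjusted p = 0.045), Irf9 20.3 ± 2.52 and 37.7 ± 6.96 CPM in WT (-0.89, 0.0369), and Usp18 0.714 ± 0.105 and 1.92 ± 0.466 CPM in WT (-1.42, 0.0374). The receptor subunits Ifnar1 (-0.13, adjusted p = 0.609) and Ifnar2 (0.12, 0.623) did not pass. With length and GC offsets Usp18 passed (-1.49, 0.0462), and Stat2 (-0.77, 0.0683) and Irf9 (-0.85, 0.0574) did not.

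The list of nucleic acid sensors had the lowest median at P4, -0.76 over 11 tested genes. Of these 3 fell (27.3%, against 4.13% of all genes) and none rose. The members Ifih1 and Ddx58, chosen with earlier results of these data known, were among those that fell. The other was Nlrc5, an interferon-induced regulator of class I antigen presentation. Apart from Nlrc5, no listed sensor outside the members was called. Nlrc5 was read at 2.17, 2.02 and 1.53 CPM in P4 cKO against 7.81 and 4.98 CPM in P4 WT (log2 -1.75, SE 0.30, adjusted p = 0.0138). The groups did not overlap, and it passed with offsets (-1.68, 0.0361). Tlr3, the endosomal sensor of double-stranded RNA, averaged 6.51 ± 0.548 CPM in P4 cKO and 10.7 ± 0.371 CPM in P4 WT and did not pass (-0.72, adjusted p = 0.0675). Dhx58, a RIG-I family helicase that lacks the signalling domains (-0.29, 0.593), and the kinase Eif2ak2, which blocks translation on double-stranded RNA (-0.59, 0.116), did not pass either.

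Of 16 adaptors, kinases and transcription factors, none was called at P4, against 8.96% of all genes. Among them were the adaptor Mavs (log2 -0.03, adjusted p = 0.93) and the factor Irf3 (-0.06, 0.886). Among 10 tested genes that damp RNA sensing, 1 rose at P4 and none fell (10% and 0%, against 4.84% and 4.13% of all genes). That gene was Rnaseh2c, a subunit of the nuclease that removes RNA from DNA. It was read at 41.1, 49.8 and 46.7 CPM in P4 cKO against 15.5 and 17.7 CPM in P4 WT (log2 1.47, SE 0.21, adjusted p = 0.0114, and 1.02 with offsets, 0.0399). Adar, which edits double-stranded RNA so that Ifih1 does not bind it, was read at 92.0, 70.8 and 63.1 CPM in P4 cKO against 125 and 104 CPM in P4 WT (-0.61, adjusted p = 0.0598).

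Among 53 tested antiviral effectors 5 fell at P4 and 1 rose (9.43% and 1.89%, against 4.13% and 4.84% of all genes), Oasl2 and Bst2 included. The other 4 were Oas2, an oligoadenylate synthetase, at 1.22 ± 0.13 CPM in P4 cKO and 3.77 ± 0.0445 CPM in P4 WT (log2 -1.62, adjusted p = 0.0269), Ddx60, a helicase, at 5.12 ± 1.30 and 15.1 ± 2.19 CPM in WT (-1.56, 0.0156), Mx1, a dynamin-like antiviral GTPase, at 1.15 ± 0.48 and 3.26 ± 0.907 CPM in WT (-1.51, 0.0369), and Herc6, the mouse ligase for Isg15, at 14.4 ± 2.11 and 27.0 ± 3.71 CPM in WT (-0.90, 0.0379). With offsets Oas2 (-1.58, 0.0493) and Ddx60 (-1.28, 0.0477) passed, and Mx1 (-1.41, 0.0578) and Herc6 (-0.62, 0.119) did not. The other 47 effectors were not called.

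**Figure D4:**
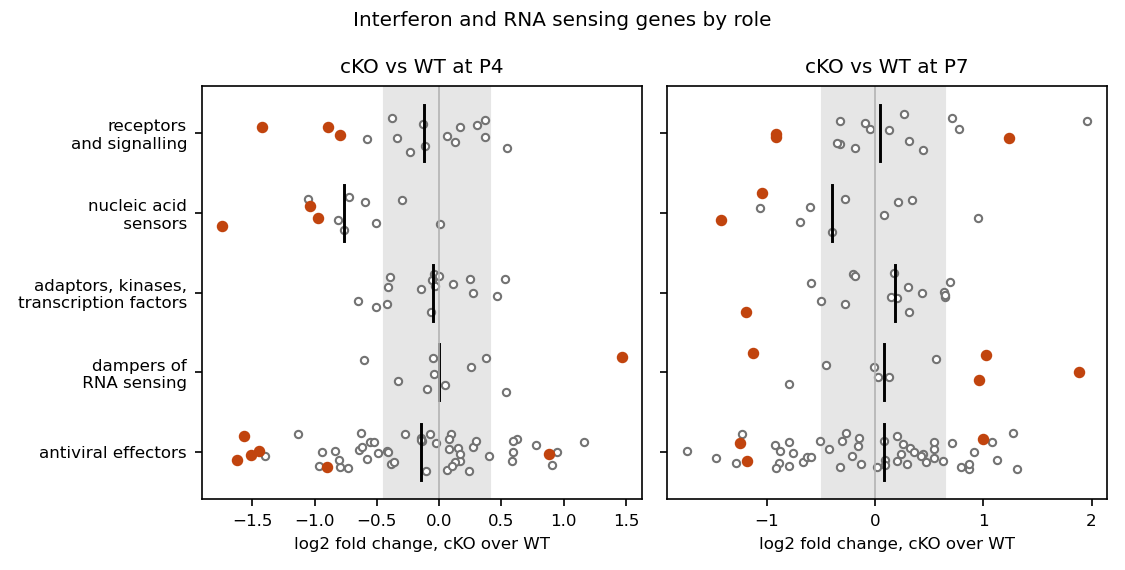
Log2 fold change of cKO over WT at P4 (left) and P7 (right) for the 106 tested genes of the interferon and RNA sensing list, the 9 members included, by role. Red points passed an adjusted p under 0.05, black bars are the median of each role, and the grey band lies between the quartiles of all genes (-0.44 to 0.41 at P4 and -0.49 to 0.65 at P7). The list of sensors, Nlrc5 included, has the lowest median at both stages (-0.76 and -0.39), without length and GC offsets. At P7 all genes with 4 kb or more of exon and an average log2 CPM of at least 1 had a median of -0.31.

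At P7, 8 of the 106 list genes fell and 5 rose, or 7.55% and 4.72%, against 9.72% and 7.26% of all genes, so the list's shares were below those of all genes. The list median was 0.09. Without the members 7 of 97 fell and 4 rose. Tlr3 fell, to 8.85 ± 1.77 CPM in P7 cKO against 23.7 CPM in P7 WT (log2 -1.42, SE 0.27, adjusted p = 0.0092). The kinases Jak1 (-0.91, 0.0279) and Jak2 (-0.91, 0.0273), Herc6 (-1.24, 0.0156), Tank, a scaffold of the interferon kinases (-1.19, 0.0317), Cyld, a deubiquitinase that restrains Ddx58 (-1.13, 0.00932), and Gbp7, an interferon-induced GTPase (-1.18, 0.013), fell as well. Those that rose were Socs1, a feedback inhibitor of the receptor kinases (1.24, 0.0329), Rnaseh2c (1.88, 0.00642), Rnaseh2a, of the same nuclease (1.02, 0.0203), and Skiv2l, a helicase of RNA decay (0.96, 0.0496). None of these 11 passed with length and GC offsets or when the P4 libraries were left out of the fit, and their log2 values with offsets ran from -0.53 (Jak1) to 0.79 (Rnaseh2c). The count was 7 without P4 cKO library 2, 17 without P7 cKO library 1 and 5 without P7 cKO library 2.

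For 11 of the 106 list genes (10.4%) every cKO sample lay below every WT sample at P4 and above the WT sample at P7, against 1029 of all 18419 genes (5.59%). The reverse order, above at P4 and below at P7, is not reported here for the list or for all genes, so the shares describe 1 chosen direction. None of the 11 was a member. Mx1, Usp18, Nlrc5, Stat2 and Adar were among them. Mx1 was read at 1.97, 2.06 and 1.92 CPM in P7 cKO against 0.798 CPM in P7 WT, and Usp18 at 1.64, 1.48 and 1.26 CPM in P7 cKO against 0.85 CPM in P7 WT. None of the 11 passed as an interaction, with log2 values of 2.82 for Mx1 (adjusted p = 0.0701), 2.20 for Usp18 (0.0826), 1.96 for Nlrc5 (0.0741), 1.11 for Stat2 (0.109) and 1.17 for Adar (0.078). Oasl2 was not among them, since its P7 WT sample lay inside the cKO range.

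With age, 15 of the 106 list genes rose and 13 fell in cKO (14.2% and 12.3%, against 14.5% and 14.7% of all genes), and 6 rose and 12 fell in WT (5.66% and 11.3%, against 11.8% and 9.97%). These shares were near or below those of all genes. Without the members these were 26 in cKO and 16 in WT. In cKO the count was 15 without P4 cKO library 2 and 15 without P4 cKO library 3. In WT it was 4 without P4 WT library 1 and 29 without P7 cKO library 1. Genes called the same way in both genotypes were chosen after their values were seen. Mavs rose in both, with log2 fold changes of 1.19 in cKO and 1.43 in WT. Bst2, Cmpk2, Ifitm2, Ifitm3, Oasl1, Sting1 and Tap1 fell in both. How many of all genes fell in both was not counted, so this overlap may be no larger than that of all genes. Sting1, the adaptor of cytosolic DNA sensing, fell by 0.82 in cKO and by 1.88 in WT. Tap1, which carries peptides to class I molecules, fell by 1.30 in cKO and by 2.52 in WT. Ifitm3, a membrane protein that blocks virus entry, fell by 0.90 in cKO and by 0.93 in WT. The markers of germ, Sertoli, stromal, Leydig, macrophage and endothelial cells given above for the members moved with age here too. Their part in these changes was not tested.

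The 9 genes did not share one pattern over the samples. Likeness was measured as the root mean square difference of mean-centred log2 CPM over the 9 samples, as a description without a test. Ifit1 and Ifit3 were the most alike members (0.20), and Ifit3 was among the 3 genes nearest to Ifit1. Oasl2 and Bst2 were the least alike (1.19). The nearest genes were Ccdc36, Pnldc1 and Gm7972 for Oasl2 (0.22 to 0.23), Sgip1, Zmym6 and Ints8 for Ifih1 (0.13 to 0.16), Ccdc82, Nox4 and Pip4k2a for Ddx58 (0.13 to 0.15) and Tkt, Ddah2 and Rpl24 for Bst2 (0.12 to 0.13). For Irf7 they were Tomm34, Ikbke and Pif1 (0.13 to 0.16).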

How the data were processed

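RNA-seq of mouse testis was analysed from the table of raw counts per gene that the authors deposited, which also gives each gene's position and exon length. The submitters' processing notes name STAR 2.7.11a, featureCounts, Subread 2.0.6, SAMtools 1.6, Trim Galore 0.6.10, FastQC 0.12.1 and MultiQC 1.14, and the build GRCm38 (mm10). They give no role for each tool. How strand and reads with several matches were handled is not given in the sources used. Most counts under 50 were even (67.8% to 80.0%), a share that counting both mates would give. The depth behind each value is therefore given in reads, and counting error is larger than for independent molecules.

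Groups came from the sample titles, and each count column matched 1 title. The labels do not say that libraries came from separate animals, so p-values reflect only how far these samples differ, and that spread may be technical. Counts were tested with edgeR 4.0.16 in R 4.3.3 (TMM factors, filterByExpr with minimum count 10, robust quasi-likelihood F test, 1 mean per group, two-sided). With the P7 WT libraries entered as their sum there were 9 samples and 5 residual degrees of freedom. P7 WT, then a single sample, was taken to vary as the other groups did. P-values were adjusted by Benjamini-Hochberg over all 18419 genes, with 0.05 as the threshold, and the common biological coefficient of variation was 0.228. CPM used TMM factors. TPM was computed from counts and exon lengths. The steps were tested on simulated data.

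Genes named are the 9 members, the wider list's genes called between genotypes at either stage, 13 pathway genes whatever their result (1 of them is not reported here), the 3 nearest genes by likeness (prior count 2), and Lsm7 and Stra8 as label checks. Genes called the same way with age in both genotypes fall outside this rule and were chosen after their values were seen. Stra8 was read at 55.7 to 86.9 CPM in P7 cKO and 67.2 CPM in P7 WT, and at 3.56 to 5.85 CPM in P4 cKO and 3.18 to 4.63 CPM in P4 WT. The members and lists were chosen with earlier results of these data known. Alternatives were RLE factors, library totals, no filter, a minimum count of 50, DESeq2 1.42.0, the compared libraries alone, 10 libraries, 10 libraries with the replicate number as a block, offsets for exon length and GC content (98.9% of kept genes had both), and leaving out each library.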

Additional observations from a re-analysis of the deposited data

How the results depend on the processing

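The values in order below are, for each comparison, the number of genes called, of the 9 members called and of the other 97 list genes called. For cKO against WT at P4 these were 1651, 4 and 9. They were 3020, 4 and 16 with DESeq2, 3229, 4 and 19 when only P4 libraries were fitted, 2895, 4 and 15 with 10 libraries, and 725, 2 and 5 with length and GC offsets. Library totals gave 15 list genes. Leaving out single libraries gave 2 to 4157, 0 to 4 and 0 to 21. For cKO against WT at P7, with 3129, 2 and 11, the compared libraries alone gave 0, 0 and 0, 10 libraries 6905, 2 and 36, offsets 2, 0 and 0, and library totals 1 member. Single libraries left out gave 961 to 4921, 0 to 2 and 5 to 17. For P7 against P4 in WT, with 4016, 2 and 16, 10 libraries gave 7279 genes and 39 list genes, offsets gave 1 member, and single libraries left out gave 1187 to 6315, 0 to 2 and 4 to 29. For P7 against P4 in cKO, with 5372, 2 and 26, single libraries left out gave 3520 to 5569, 2 and 15 to 28. For the interaction, with 0, 0 and 0, library totals gave 3 genes, offsets 1, no filter 431, 1 and 2, DESeq2 1720, 1 and 10, and 10 libraries 3105, 1 and 16. Single libraries left out gave 0 to 1455, 0 to 1 and 0 to 7. The member in the interaction counts was Oasl2. The cause of these shifts was not tested. The fit with 10 libraries takes the P7 WT pair as separate samples, and leaving out a library removes degrees of freedom. Without P7 cKO library 1 the calls instead rose, to 4157 at P4, 4921 at P7 and 1455 for the interaction. With age they rose to 6315 in WT and 5569 in cKO. Counts of that library against the other P7 cKO libraries gave chi-squares of 117.3 and 122.9 for each degree of freedom. Those libraries gave 23.5 with each other.

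The replicate numbers were not taken to pair the samples, since the labels give them no shared origin. The correlation of deviations from group means ran from -0.16 to 0.31 over same-numbered samples and from -0.31 to 0.25 over differently numbered ones. In a group of 2 libraries these deviations mirror each other, so the correlation cannot decide whether samples were paired. For same-numbered samples the values were as follows. The correlation was 0.15 and -0.09 between genotypes at P4 and 0.00 and -0.01 at P7. Between stages it reached 0.31 and 0.24 for P4 WT with P7 cKO and 0.14 for cKO replicate 3. With 10 libraries and the replicate number as a block, the counts were 2732, 4 and 18 at P4, 7438, 2 and 36 at P7, 7812 and 41 (genes and list genes) between the stages in WT, and 4311, 1 and 25 for the interaction.

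Only values that did not pass changed sign. At P7, Oasl2 (0.02) became -0.00 with no filter, -0.01 in the compared libraries alone, -0.04 without P7 cKO replicate 2 and -0.01 without P7 WT replicate 1, and reached 0.10 without P7 WT replicate 2. Offsets gave 0.06 for Ddx58, -0.12 for Isg15, 0.35 for Ifit1 and -0.37 for Irf7 at P7, and leaving out P7 WT replicate 2 or 1 gave 0.00 or -0.35 for Ifit1. The interaction of Ifih1 (-0.01) was 0.02 with RLE factors, DESeq2 and 10 libraries, 0.26 with library totals, 0.08 with a minimum count of 50, 0.56 with offsets, and 0.07, 0.30, 0.06 and 0.07 without P4 cKO replicate 1, P4 WT replicate 2, P7 cKO replicate 2 and P7 WT replicate 2. That of Bst2 was -0.39 with offsets and that of Ifit1 ran from -0.05 without P4 WT replicate 1 to 1.10 without P4 WT replicate 2. Between the stages in WT, Oasl2 ran from -0.28 without P4 WT replicate 2 to 0.12 without P4 WT replicate 1. Isg15 and Ifit1 were dropped by the minimum count of 50. Isg15, Ifit1 and Oas1a rested on 6 to 53 reads a library.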
